A study of Mus musculus with 6 samples.

Results

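Mitochondrial ribosomal protein genes were examined in the prostates of TRAMP mice given OSU-CG5 or vehicle. The members were the genes whose probe sets carried exactly 1 symbol beginning with Mrpl or Mrps and a number, and each gene was read by the probe set that was brightest on average over the 6 arrays. This gave 76 genes, 47 named Mrpl and 29 named Mrps, read by 156 probe sets in all, of 18193 genes and 45037 probe sets on the arrays. The choice of members used no difference between the groups. A further 4 probe sets that name a member together with another gene were left out.

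TRAMP mice express the SV40 T antigens in prostate epithelium from the probasin promoter and develop prostate tumours with age, so both groups carried the transgene. All mice were intact males of the cross (C57BL/6 TRAMP x FvB) F1. The vehicle group received the carrier and the other group OSU-CG5 at 100 mg/kg/day by oral gavage for 4 weeks, from 6 to 10 weeks of age. OSU-CG5 is known here by its code name only, and has been described elsewhere as an agent that mimics energy restriction. Dorsal and lateral lobes were collected 2 to 4 h following the final dose, and each of 3 mice per group was measured on 1 Affymetrix array. The free-text description of OSU-CG5 replicates 2 and 3 has another number after the compound's prefix than their source label and title, which were followed. Values are log2 expression values, so a difference of 1 is a doubling, and each difference given is OSU-CG5 minus vehicle.

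Mitochondria keep a small genome whose messages encode core subunits of the respiratory chain complexes and ATP synthase. These messages are translated inside the organelle by the mitoribosome, whose RNAs come from the mitochondrial genome while all of its proteins are encoded in the nucleus, made in the cytoplasm and imported. The small subunit holds the message and decodes it, and the large subunit forms the peptide bond and passes the new chain out towards the inner membrane. Many of the proteins descend from bacterial ribosomal proteins, and others were gained in the mitochondrial lineage. The nuclear factors NRF1, GABP (an ETS factor whose DNA-binding subunit is Gabpa) and YY1 are known regulators of nuclear genes for mitochondrial proteins.

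The members' promoters were read for core motifs of those 3 factors, because the factors' own transcripts were measured as well. RefSeq (GRCm38.p6) gave a promoter of 300 bases, 250 before and 50 after the transcription start, for 67 of the 76 genes. The motifs searched on both strands were GCATGCGC for NRF1, CCGGAAGT for ETS/GABP and ATGGCGGC for YY1. The NRF1 letters overlap their own reverse complement, so one stretch can match on both strands, and no motif shares letters with another where both occur in the windows shown. At least 1 of the motifs was found in 26 of the 67 members (38.8%), beside 9.22% of all genes with a RefSeq promoter and 12.1% of protein-coding genes. The NRF1 letters were in 8 members (11.9%, and 3.05% of all genes), the ETS/GABP letters in 12 (17.9%, and 4.31%) and the YY1 letters in 11 (16.4%, and 2.61%). Counted over promoters of that length, the shares were 10.96%, 16.4% and 15.1% of 73 member promoters, and 2.71%, 3.89% and 2.24% of all 32851. A match describes the letters and is no evidence of binding. The 6 windows shown run from 120 bases before the start to 30 after it, are written 5′ to 3′ on the gene's own strand, and show motif matches in capitals. They show examples of each motif and the member with the largest difference between groups. Mrpl33 (chr5:31613831-31613980, + strand) holds NRF1 letters on the opposite strand beginning 12 bases before the start and ETS/GABP letters beginning 3 bases before it. Mrpl22 (chr11:58171544-58171693, + strand) holds NRF1 letters on the opposite strand from 33 bases before the start and YY1 letters 23 bases after it. Mrps22 (chr9:98601650-98601799, - strand) holds ETS/GABP letters 11 bases before the start. Mrpl52 (chr14:54426789-54426938, + strand) holds them on the opposite strand from base 2 after the start. Mrps18a (chr17:46110884-46111033, + strand) holds YY1 letters from base 15 after the start. Mrpl23 (chr7:142532912-142533061, + strand) has none of these letters in the window.
Mrpl33: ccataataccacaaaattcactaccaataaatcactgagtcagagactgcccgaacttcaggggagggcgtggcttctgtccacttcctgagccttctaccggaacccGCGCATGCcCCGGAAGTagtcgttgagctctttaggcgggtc
Mrpl22: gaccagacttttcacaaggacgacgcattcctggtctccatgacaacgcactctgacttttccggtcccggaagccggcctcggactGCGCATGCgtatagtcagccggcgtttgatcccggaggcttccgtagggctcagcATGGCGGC
Mrps22: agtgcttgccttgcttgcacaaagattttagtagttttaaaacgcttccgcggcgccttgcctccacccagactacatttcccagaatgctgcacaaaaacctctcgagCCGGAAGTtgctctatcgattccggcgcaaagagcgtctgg
Mrpl52: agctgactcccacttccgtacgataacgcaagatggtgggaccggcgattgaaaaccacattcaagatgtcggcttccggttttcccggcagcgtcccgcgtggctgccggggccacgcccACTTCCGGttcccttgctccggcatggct
Mrps18a: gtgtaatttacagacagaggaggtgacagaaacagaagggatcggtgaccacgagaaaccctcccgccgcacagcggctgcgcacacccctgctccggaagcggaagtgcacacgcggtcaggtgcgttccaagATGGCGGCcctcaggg
Mrpl23: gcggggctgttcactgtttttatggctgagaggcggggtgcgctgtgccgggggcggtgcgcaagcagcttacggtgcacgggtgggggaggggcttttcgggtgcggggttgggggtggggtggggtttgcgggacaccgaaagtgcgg

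Across all genes the arrays gave no probe set past the threshold. At a limma adjusted p under 0.05, 0 of 45037 probe sets (0%) were called, while 4338 were higher and 3061 lower with an unadjusted p under 0.05. Prostate transcripts were high on all arrays, with Pbsn at 13.28 to 13.91 and Hoxb13 at 10.13 to 10.82. Vehicle replicate 2 stood apart, with Pearson correlations of 0.966 to 0.981 with the other arrays over probe sets. All 6 measured transcripts of an 8-gene seminal vesicle list were highest on it, and their mean was 7.91 there, 3.90 and 5.08 on the other vehicle arrays and 3.56 to 4.55 on the OSU-CG5 arrays. Markers of muscle, endothelial and immune cells read lower with OSU-CG5, in 7 of 8 smooth muscle, 7 of 7 macrophage, 7 of 7 endothelial, 8 of 8 skeletal muscle and 5 of 6 lymphocyte genes. Their list medians were -0.26, -0.38, -0.28, -0.58 and -0.28. Of all genes 65.7% lay below 0. Leaving out vehicle replicate 2 gave list medians of -0.22, -0.25, -0.24, -0.41 and -0.30 in that order. Fibroblast and matrix genes read lower in 5 of 6, basal epithelium genes in 3 of 4 and dorsolateral prostate epithelium genes in 5 of 9. The medians of these lists were -0.25, -0.10 and -0.01, and -0.26, -0.08 and 0.04 without vehicle replicate 2. Cell cycle genes read higher in 7 of 9, with a median of 0.37 that was 0.24 without vehicle replicate 2. The 3′ minus 5′ signal of Gapdh, a measure of RNA integrity, was 2.39 ± 0.32 (SD, n = 3) in the vehicle group and 2.89 ± 0.16 in the treated group, with an exact permutation p of 0.2 (two-sided, the smallest possible being 0.1). For Actb it was 2.99 ± 0.13 and 3.03 ± 0.07, with an exact permutation p of 0.6. In bulk tissue, fewer cells of a type and less RNA per cell cannot be told apart, and the part of these shifts in the members' values was not tested.

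The mitochondrial ribosomal protein genes differed little between the groups, and none passed the test. Their differences ran from -0.39 to 0.35, the largest being 1.31-fold, and 0 of 76 reached 1.5-fold, a size that 2.41% of all genes reached. Of the 76, 56 read lower with OSU-CG5 and 20 higher, so 73.7% lay below 0, beside 65.7% of all genes and 53.4% of the 9627 genes whose mean was log2 6 or more. The members' median difference was -0.14, against -0.09 over all genes and -0.02 over those 9627 genes. All but 1 of the members (75 of 76) were themselves above log2 6, with means between 5.33 and 11.2. The limma adjusted p was 0.201 or more for each of them. An unadjusted p under 0.05 was found for 4 members that read lower (Mrpl23, Mrps21, Mrps18a and Mrps11) and 1 that read higher (Mrps15), together 6.58% of the members. Over all genes 13.8% met that rule, 5.4% higher and 8.43% lower, and 16.3% of the genes above log2 6 did. The 4 lower and 1 higher became 2 and 1 with arrays centred on their median, 5 and 2 after cyclic loess, and 12 and 0 after a repeated quantile normalization. Those counts were 3.95%, 9.21% and 15.8% of the members, beside 12.8%, 11.9% and 15.0% of all genes in the same fits.

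The 2 groups did not overlap in 11 members, 9 lower and 2 higher with OSU-CG5, which is 14.47% of the members. Over all genes 8.1% stood apart in the higher direction and 14.2% in the lower, and 24.3% of genes above log2 6 did in either. With the values as deposited, the shares of members called, or standing apart, were no larger than those of genes in general. The 9 lower were Mrpl23, Mrpl21, Mrpl52, Mrps11, Mrps18a, Mrps21, Mrps23, Mrps28 and Mrps36, and the 2 higher were Mrpl19 and Mrps15. The 95% interval of the difference lay wholly inside 1.5-fold in both directions for 47 members (61.8%, and 66.6% of all genes), and it included 0 for 71. The half-width of that interval had a median of 0.36 and ran from 0.25 to 1.03, so for the remaining members a 1.5-fold difference in at least 1 direction lay inside the interval at this number of arrays.

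**Figure D1:**
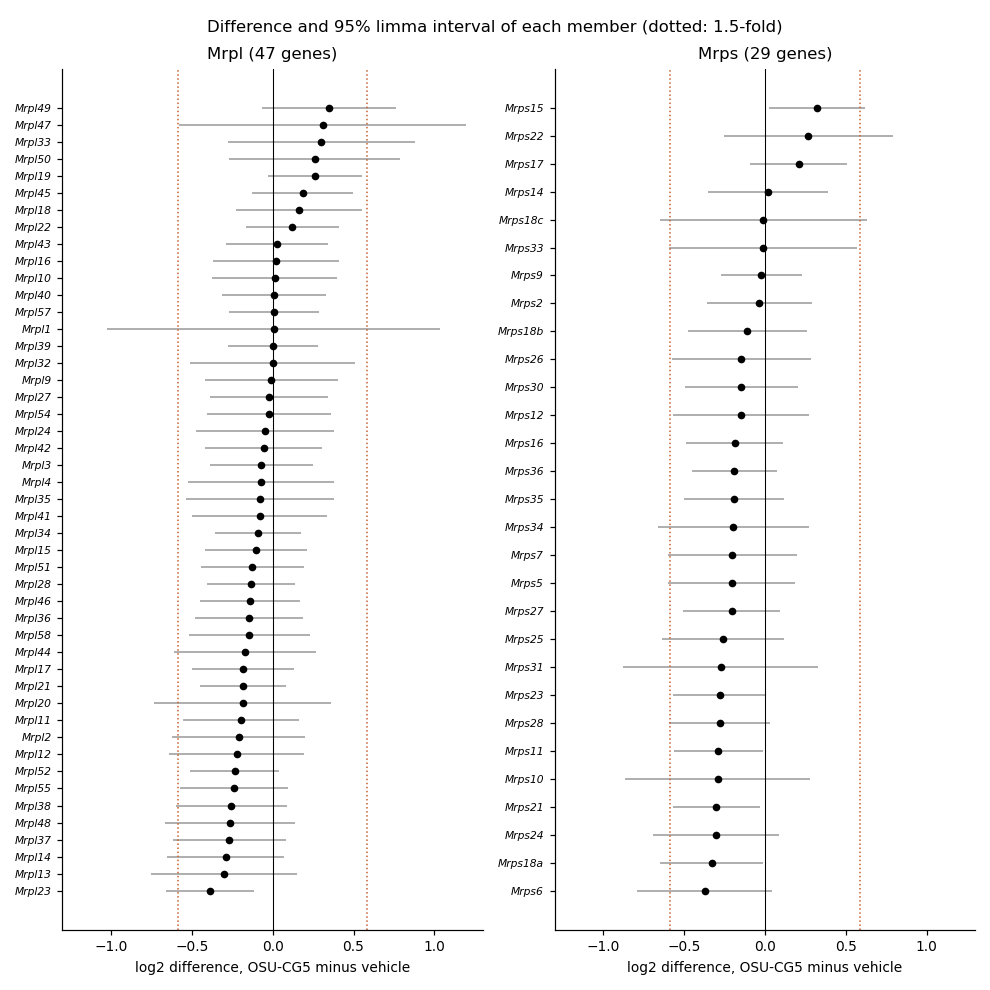
Difference of each of the 47 Mrpl and 29 Mrps genes, OSU-CG5 minus vehicle, on the log2 scale with its 95% limma interval, n = 3 arrays per group. The dotted lines mark 1.5-fold, which no point reaches, and the intervals of 71 of the 76 genes cross 0.

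Large-subunit genes had small differences in both directions. Of the 47 Mrpl genes 31 read lower and 16 higher, with a median of -0.08. Mrpl23, a homologue of the bacterial protein that lines the rim of the exit tunnel, read 7.52, 7.65 and 7.56 with vehicle and 7.32, 7.10 and 7.14 with OSU-CG5. Every OSU-CG5 array lay below every vehicle array, and the difference was -0.39 (SE 0.12, 95% interval -0.66 to -0.12, limma adjusted p = 0.201). It was the member with the smallest p, and its unadjusted p stayed under 0.05 in every alternative that was run.

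Mrpl52, a protein specific to mitochondria, read 10.94, 10.69 and 10.73 with vehicle and 10.48, 10.62 and 10.56 with OSU-CG5. Its groups did not overlap, with a difference of -0.24 (SE 0.12, limma adjusted p = 0.365). Mrpl21, chosen here after its values were seen, also had no overlap, at 8.43 to 8.56 with vehicle and 8.19 to 8.42 with OSU-CG5. In the next 4 lower genes the groups overlapped. These were Mrpl14, a homologue of a bacterial protein at the face that meets the small subunit (-0.29, SE 0.16), Mrpl37 (-0.27, SE 0.15) and Mrpl38 (-0.26, SE 0.15), both specific to mitochondria, and Mrpl55 (-0.24, SE 0.15). All 4 were highest on vehicle replicate 2, and without that array their differences were -0.17, -0.17, -0.14 and -0.10.

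Among the large-subunit genes that read higher, Mrpl19, a homologue of a bacterial protein at the interface of the subunits, was at 6.17, 6.32 and 6.45 with vehicle and 6.71, 6.51 and 6.50 with OSU-CG5. Its groups did not overlap, with a difference of 0.26 (SE 0.13, limma adjusted p = 0.344). Mrpl49, specific to mitochondria, read 7.44, 7.99 and 8.13 with vehicle and 8.12, 8.22 and 8.26 with OSU-CG5. Vehicle replicate 1 was the low array, the groups overlapped narrowly, and the difference was 0.35 (SE 0.18). Mrpl45, which helps anchor the mitoribosome at the inner membrane, read 7.29, 7.46 and 7.43 with vehicle and 7.81, 7.43 and 7.50 with OSU-CG5, a difference of 0.18 (SE 0.14). Here OSU-CG5 replicate 1 alone stood well above the vehicle range.

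Mrpl33, Mrpl50 and Mrpl22 had differences above 0 that were near 0 once vehicle replicate 2 was left out. Mrpl33, a small protein with a bacterial homologue, read 8.26, 7.21 and 7.94 with vehicle and 8.32, 8.03 and 7.95 with OSU-CG5. Vehicle replicate 2 was the low value, and the difference of 0.30 (SE 0.25) was 0.00 without it. Mrpl50 (0.26, SE 0.23) and Mrpl22, a homologue of a bacterial exit tunnel protein (0.12, SE 0.13), were likewise lowest on vehicle replicate 2, and without it they stood at 0.08 and 0.02.

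Proteins of known position gave the same picture. Mrpl10, Mrpl11 and Mrpl12 belong to the stalk and its base, which recruit translation factors. Mrpl11 read 9.19, 9.53 and 9.56 with vehicle and 9.46, 9.17 and 9.05 with OSU-CG5, a difference of -0.20 (SE 0.16). Mrpl12 read 6.84, 7.49 and 7.13 with vehicle and 7.13, 6.76 and 6.91 with OSU-CG5, a difference of -0.22 (SE 0.18) that was -0.05 without vehicle replicate 2. Mrpl10 differed by 0.01 (95% interval -0.37 to 0.40), and its sign turned after quantile normalization. In all 3 the groups overlapped.

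Mrpl3, which reaches towards the catalytic centre, differed by -0.07 (95% interval -0.39 to 0.25). Mrpl44, which has a ribonuclease-like fold and in which human mutations cause heart muscle disease, differed by -0.17 (SE 0.19). Mrpl41, at 10.65 to 11.33 with vehicle and 10.83 to 11.11 with OSU-CG5, differed by -0.08 (SE 0.18). Vehicle replicate 2 gave the highest value of Mrpl3 and Mrpl44 and the lowest of Mrpl41, and without it the differences were 0.03, 0.00 and -0.27. Mrps30 and Mrps18a carry small-subunit names but sit in the large subunit in structures of the mammalian mitoribosome. Mrps30 read 8.10, 8.63 and 8.24 with vehicle and 8.20, 8.12 and 8.21 with OSU-CG5, a difference of -0.15 (SE 0.15) that was 0.01 without vehicle replicate 2.

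Mrps18a, one of 3 mammalian homologues of bacterial S18 in this family, read 7.70, 8.14 and 7.87 with vehicle and 7.61, 7.52 and 7.59 with OSU-CG5. Every OSU-CG5 array was below the vehicle arrays, with a difference of -0.33 (SE 0.14, 95% interval -0.65 to -0.01, limma adjusted p = 0.290). Vehicle replicate 2 was again the highest value, and the difference was -0.21 without it. The homologues Mrps18b and Mrps18c are small-subunit proteins.

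**Figure D2:**
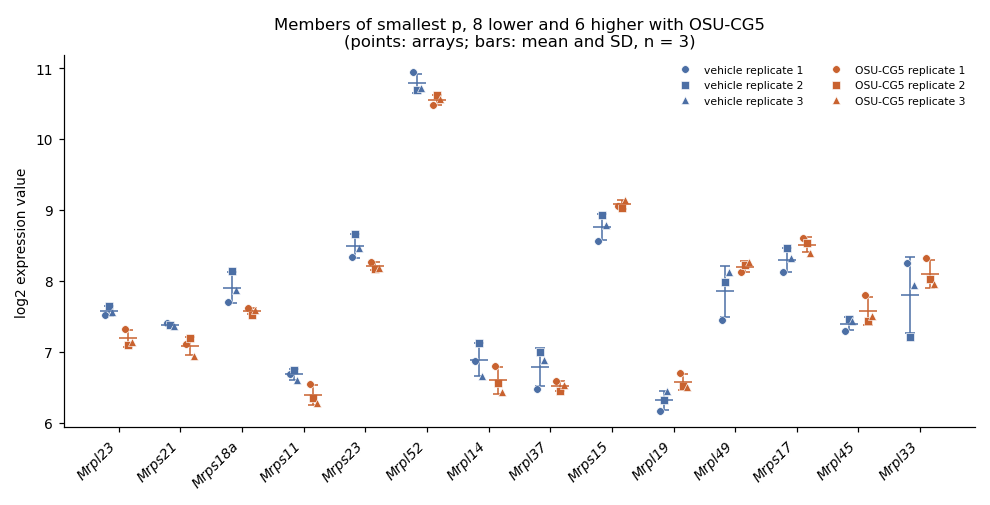
Log2 expression on each of the 6 arrays for the 8 members named as lower and 6 named as higher, with the mean and SD of each group of 3. Mrpl23, Mrps21, Mrps18a, Mrps11, Mrps23 and Mrpl52 have no overlap in the lower direction, and Mrps15 and Mrpl19 none in the higher, while the remaining genes overlap.

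Most small-subunit genes read slightly lower with OSU-CG5. Without Mrps18a, Mrps30 and Mrps36, whose product is no ribosomal protein, 26 genes belong to the small subunit, of which 22 lay below 0 and 4 above, with a median of -0.19. The unadjusted p was under 0.05 for 2 that read lower and 1 that read higher, 11.5% of the 26 beside 13.8% of all genes. In the large subunit, Mrps18a and Mrps30 included, 33 of 49 lay below 0 with a median of -0.08. Without vehicle replicate 2 the medians were -0.14 for the small and -0.05 for the large subunit, and the 2 were not tested against each other. By role, the 29 large-subunit genes with a bacterial homologue had a median of -0.08 and the 20 specific to mitochondria -0.10. In the small subunit the 16 with a bacterial homologue had a median of -0.19 and the 10 specific to mitochondria -0.19, with 13 and 9 of them below 0. Without vehicle replicate 2 the 4 medians were -0.05, -0.03, -0.15 and -0.12 in that order. Mrps18a was counted among the 20 and Mrps18b among the 10 specific to mitochondria, though both are homologues of bacterial S18.

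Mrps21, a homologue of a small bacterial ribosomal protein, read 7.41, 7.37 and 7.36 with vehicle and 7.11, 7.19 and 6.94 with OSU-CG5. Its vehicle values were tight (SD 0.02) and all OSU-CG5 values lay below them, with a difference of -0.30 (SE 0.12, 95% interval -0.57 to -0.03, limma adjusted p = 0.265). Mrps11, a homologue of a protein of the platform, read 6.68, 6.75 and 6.61 with vehicle and 6.55, 6.35 and 6.28 with OSU-CG5. The difference was -0.29 (SE 0.12, 95% interval -0.57 to -0.01, limma adjusted p = 0.291), again with no overlap.

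Mrps23, specific to mitochondria, read 8.33, 8.67 and 8.46 with vehicle and 8.27, 8.17 and 8.19 with OSU-CG5, a difference of -0.28 (SE 0.13, limma adjusted p = 0.314). Mrps28, chosen after its values were seen, stood apart by a narrow gap, at 8.62 to 8.78 with vehicle and 8.21 to 8.61 with OSU-CG5. Mrps6 had the second lowest difference of all members, -0.37 (SE 0.18), and was chosen for that. It read 9.88, 10.39 and 10.60 with vehicle and 9.88, 9.89 and 9.98 with OSU-CG5, so vehicle replicate 1 sat at the level of the OSU-CG5 arrays. A second probe set of Mrps6, with a mean of 7.44, differed by 0.05 (SE 0.14), so the lower reading rests on the brightest one.

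Mrps15, a homologue of a bacterial protein that binds the small ribosomal RNA early in assembly, went the other way. It read 8.56, 8.93 and 8.78 with vehicle and 9.06, 9.03 and 9.14 with OSU-CG5. Every OSU-CG5 array was above the vehicle arrays, with a difference of 0.32 (SE 0.13, 95% interval 0.02 to 0.62, limma adjusted p = 0.279). A second probe set of the gene read 8.61, 8.82 and 8.79 with vehicle and 9.14, 8.99 and 9.12 with OSU-CG5, a difference of 0.35 (SE 0.12) with no overlap either, and a dimmer one differed by 0.06.

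The other small-subunit genes that read higher were Mrps17, Mrps22 and Mrps14. Mrps17 read 8.12, 8.46 and 8.32 with vehicle and 8.60, 8.53 and 8.39 with OSU-CG5, a difference of 0.21 (SE 0.13). Mrps22, specific to mitochondria and mutated in a human mitochondrial disease, read 8.24, 7.54 and 8.33 with vehicle and 8.61, 8.16 and 8.15 with OSU-CG5. Its low value was vehicle replicate 2, and the difference of 0.27 (SE 0.23) was 0.02 without that array. Mrps14 differed by 0.02 (SE 0.16), and its sign turned after quantile normalization and after cyclic loess.

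Mrps16, whose human gene is also mutated in mitochondrial disease, read 8.20, 8.19 and 8.20 with vehicle and 8.20, 8.03 and 7.80 with OSU-CG5. OSU-CG5 replicate 1 equalled the vehicle arrays and the other two lay below, with a difference of -0.19 (SE 0.13). Mrps12, a protein of the decoding centre, differed by -0.15 (SE 0.18) and Mrps2 by -0.03 (SE 0.14), both with overlap. Mrps36 read 7.87, 8.06 and 7.88 with vehicle and 7.67, 7.80 and 7.78 with OSU-CG5, with no overlap and a difference of -0.19 (SE 0.12). Its product is now known as a component of the 2-oxoglutarate dehydrogenase complex rather than of the ribosome, so it stands in none of the 4 groups by role.

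Within the OSU-CG5 group most members were highest on replicate 1. Their mean over 76 genes was 8.32, 8.42 and 8.39 on the vehicle arrays and 8.44, 8.21 and 8.21 on the OSU-CG5 arrays. OSU-CG5 replicate 1 thus had the highest mean of all 6 arrays and the other OSU-CG5 arrays the lowest 2, so the groups overlapped (8.38 ± 0.05 against 8.29 ± 0.13, SD, n = 3). OSU-CG5 replicate 1 lay above both other OSU-CG5 arrays in 62 of 76 members (81.6%). The same held for 36.5% of all genes, 50.2% of genes above log2 6, 31 of 43 cytoplasmic ribosomal protein genes (72.1%) and 24 of 34 complex I subunit genes (70.6%). The median gap between replicate 1 and the mean of the other two was 0.21 over the members, larger than the members' median difference between the groups. No test of this count was made.

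Single members show the size of that gap. Mrps10 read 7.77 on OSU-CG5 replicate 1 and 6.75 and 6.85 on the others, with vehicle at 7.38, 7.48 and 7.39. Mrps31 read 8.31, 7.46 and 7.25 with OSU-CG5 and 8.01, 8.13 and 7.70 with vehicle. Mrpl13 read 10.00, 9.29 and 9.28 with OSU-CG5 and 9.91, 9.80 and 9.75 with vehicle. These 3, chosen after their values were seen, placed the treated group on both sides of the vehicle arrays. Without OSU-CG5 replicate 1 the members' median difference was -0.20, with 64 of 76 below 0, and the median over all genes was -0.08. In that fit 7 members were lower at an unadjusted p under 0.05, which is 9.21% of the members beside 10.6% of all genes. Without OSU-CG5 replicate 3 the members' median was -0.06 and that of all genes -0.09. No member passed an adjusted p of 0.05 in any of these fits.

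**Figure D3:**
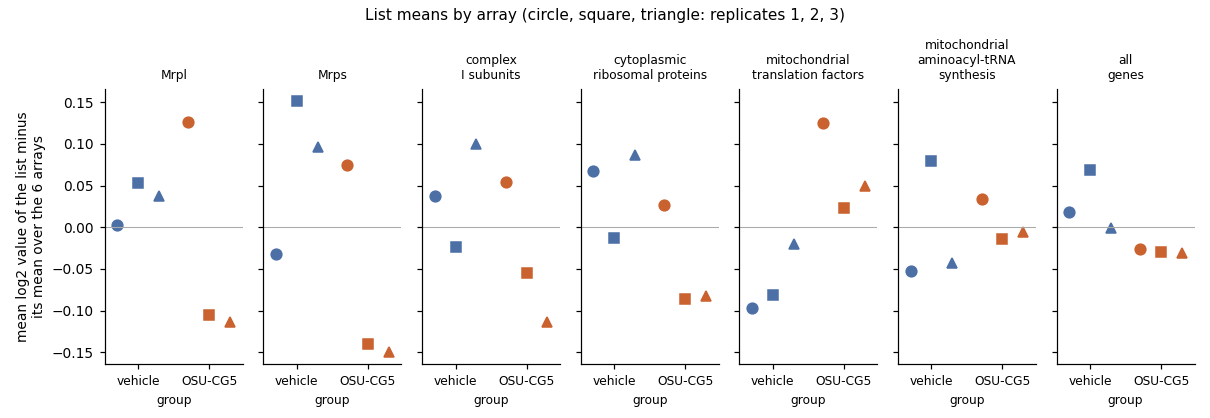
Mean log2 level of each gene list on each array, minus that list's mean over the 6 arrays. Circles, squares and triangles are replicates 1, 2 and 3. The Mrpl mean is highest on OSU-CG5 replicate 1 and the Mrps mean on vehicle replicate 2, and both are lowest on OSU-CG5 replicates 2 and 3.

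On vehicle replicate 2, the array with the seminal vesicle transcripts, members lay apart in both directions, as did genes in general. That array was the highest of the 6 for 35 members (46.05%) and the lowest for 15 (19.7%). The shares were 38.5% and 15.1% of all genes, and 41.6% and 20.1% of genes above log2 6. Relative to the mean of the other vehicle arrays, 10 members were lower there by at least 0.5 (13.2%, and 6.40% of all genes) and 9 were higher by at least 0.5 (11.8%, and 7.94%). Among genes above log2 6 the shares were 9.87% and 10.8%. The 10 low ones were Mrpl1, Mrpl32, Mrpl33, Mrpl35, Mrpl41, Mrpl47, Mrpl50, Mrps18c, Mrps22 and Mrps33, and the 9 high ones Mrpl2, Mrpl4, Mrpl10, Mrpl12, Mrpl20, Mrpl44, Mrpl54, Mrps5 and Mrps34.

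Mrpl1 read 8.03, 6.48 and 8.37 with vehicle and 8.14, 7.36 and 7.41 with OSU-CG5, and its interval was the widest, -1.02 to 1.04. Mrpl47 read 8.52, 6.89 and 8.49 with vehicle and 8.34, 8.29 and 8.21 with OSU-CG5. Mrps18c read 10.75, 9.50 and 10.29 with vehicle and 10.34, 10.10 and 10.08 with OSU-CG5. On the other side, Mrps34 read 8.14, 8.95 and 8.32 with vehicle and 8.22, 8.19 and 8.41 with OSU-CG5. All 4, chosen after their values were seen, had vehicle arrays further from each other than the OSU-CG5 group mean was from theirs. The vehicle SD exceeded the OSU-CG5 SD in 54 of 76 members, with medians of 0.22 and 0.13. These medians were close to those of genes in general, at 0.18 and 0.13 over all genes and 0.21 and 0.12 over genes above log2 6.

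Without vehicle replicate 2 the members' median difference was -0.07, with 49 of 76 below 0, beside a median of -0.05 over all genes. The members at an unadjusted p under 0.05 were then Mrpl23, Mrps21 and Mrps15, as before, with Mrpl1 and Mrpl35. Together they were 6.58% of the members, beside 12.7% of all genes. That fit called 400 probe sets at an adjusted p under 0.05, and none of them was a member's brightest probe set. The part of the seminal vesicle transcripts in the members' spread was not tested.

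**Figure D4:**
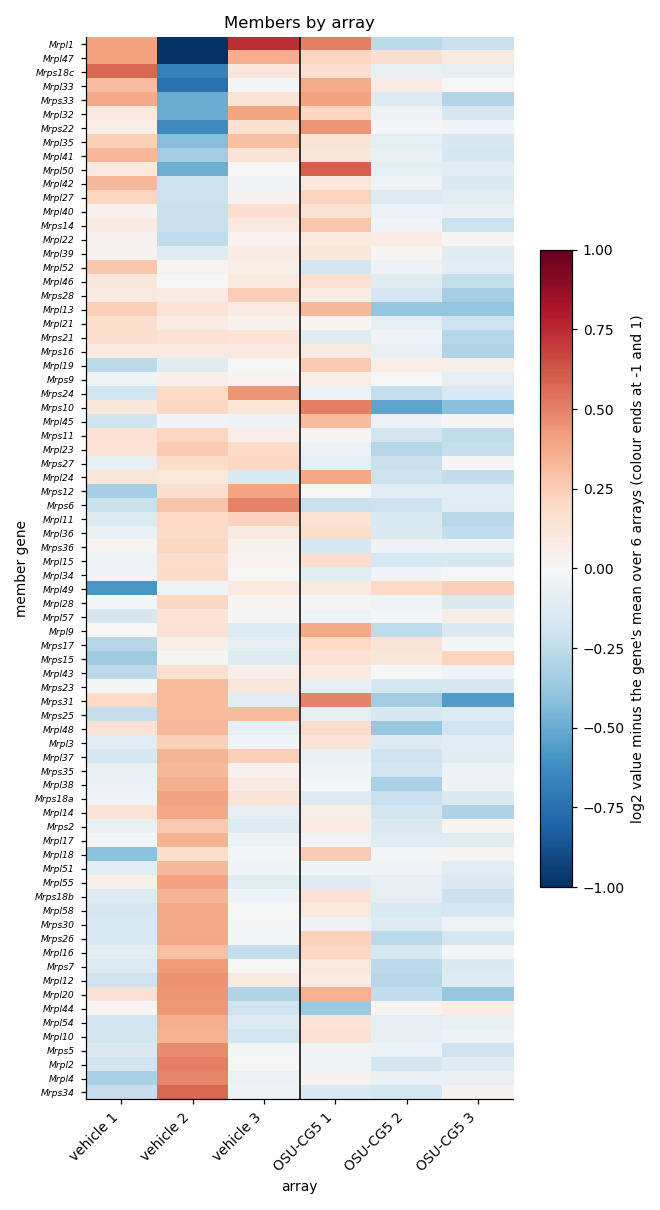
Log2 value of each of the 76 members on each array minus that gene's mean over the 6 arrays, with colours clipped at -1 and 1. Genes are ordered by vehicle replicate 2 minus the mean of the other vehicle arrays, from Mrpl1 (-1.72) to Mrps34 (0.72), and the column of OSU-CG5 replicate 1 lies above the other OSU-CG5 columns in most rows.

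Other probe sets of the same genes gave a looser reading. In 42 genes there were several probe sets, and the second brightest differed in the same direction as the brightest in 31. Over all 80 other probe sets the median difference was -0.08, 57 kept the direction, and 6 read higher and 2 lower with an unadjusted p under 0.05. Of all 45037 probe sets, 4338 read higher and 3061 lower by that rule, together 16.4%. Among the members named for a small p, the other probe sets of Mrpl52 and Mrps23 with a mean above log2 6 also read lower, at -0.38 and -0.20 for Mrpl52 and -0.39 and -0.27 for Mrps23. Dimmer probe sets of Mrps21 and Mrps11 lay on the other side of 0, at 0.74 (SE 0.41, mean 5.65) and 0.33 (SE 0.19, mean 3.68), the latter with every OSU-CG5 array above every vehicle array. All 3 others of Mrpl19 lay below 0, at -0.24, -0.14 and -0.07, and that of Mrpl49 at -0.20, where the brightest ones lay above it. With the mean over a gene's probe sets Mrps21 stood at 0.22, Mrps11 at 0.02 and Mrpl19 at -0.05, so the direction of these 3 depends on the probe set. In Mrps10 a second probe set differed by 0.42 where the brightest differed by -0.29, and in Mrpl38 a second differed by 0.26 where the brightest differed by -0.26. In Mrpl48, chosen after its values were seen, all 3 probe sets read lower, the brightest at -0.26 and the others at -0.48 (SE 0.14) and -0.14. The brightest probe set of 32 members has an identifier that marks possible matches to several transcripts of a gene or to other genes, so those values are less certain. With plain identifiers only, 62 genes remained and their median was -0.06, beside -0.09 over all genes read by their brightest probe set.

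Members with and without the motif letters had medians between -0.15 and 0.00. The 8 members with NRF1 letters had a median of 0.00, with 3 of 8 below 0, and the 12 with ETS/GABP letters had -0.05, with 8 below 0. The 11 with YY1 letters had -0.15 and the 41 with none of the letters had -0.15. Mrpl33, with both NRF1 and ETS/GABP letters, differed by 0.30, Mrpl22 by 0.12 and Mrps22 by 0.27, and all 3 were near 0 without vehicle replicate 2, as given above. Of the 10 members low on that array 6 hold at least 1 motif, as do 2 of the 6 high ones and 18 of the 51 between that have a promoter entry. These counts are small and were not tested.

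Among transcripts of NRF1, YY1 and the subunits of GABP, Nrf1, Gabpa and the partner subunit Gabpb2 read higher with OSU-CG5. Yy1 differed by -0.02 and Gabpb1, another GABP partner subunit, by -0.06. Of 14 listed regulators 4 read higher and 1 lower with an unadjusted p under 0.05 (35.7%, beside 13.8% of all genes and 16.3% of those above log2 6), and none passed the adjusted test. The list's median was 0.08, and 0.19 without vehicle replicate 2, where that of all genes went from -0.09 to -0.05. Gabpb2, a partner subunit of the GABP complex, read 9.36, 9.18 and 9.55 with vehicle and 9.82, 9.95 and 9.93 with OSU-CG5, a difference of 0.54 (SE 0.13, limma adjusted p = 0.164). Gabpa read 8.53, 8.35 and 8.70 with vehicle and 9.15, 8.84 and 8.87 with OSU-CG5, a difference of 0.43 (SE 0.14, limma adjusted p = 0.221). Nrf1 read 7.17, 6.80 and 7.44 with vehicle and 7.72, 7.69 and 7.53 with OSU-CG5, a difference of 0.51 (SE 0.17, limma adjusted p = 0.224). In each of the 3 every OSU-CG5 array lay above every vehicle array, and vehicle replicate 2 was the lowest, with differences of 0.44, 0.34 and 0.34 without it. The fourth regulator higher at that level was Ppargc1a, a coactivator of mitochondrial biogenesis, at 6.52, 6.52 and 6.92 with vehicle and 6.86, 7.12 and 7.26 with OSU-CG5, a difference of 0.43 (SE 0.16) with overlap.

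Nfe2l1, a stress-responsive transcription factor, read lower, at 8.28, 8.58 and 8.12 with vehicle and 7.99, 7.91 and 7.99 with OSU-CG5, a difference of -0.36 (SE 0.14, limma adjusted p = 0.266). Esrra, a nuclear receptor that drives oxidative metabolism genes, differed by -0.26 and Myc by -0.24, and both were near 0 without vehicle replicate 2 (0.01 and 0.02).

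Genes that charge mitochondrial transfer RNAs held the 2 smallest limma adjusted p-values of the mitochondrial lists. Ears2 and Hars2, which charge the mitochondrial transfer RNAs for glutamate and histidine, read higher. Ears2 was at 5.68, 5.59 and 5.88 with vehicle and 6.30, 6.44 and 6.42 with OSU-CG5, a difference of 0.67 (SE 0.12, limma adjusted p = 0.136). Hars2 was at 6.96, 6.85 and 7.17 with vehicle and 7.68, 7.63 and 7.64 with OSU-CG5, a difference of 0.66 (SE 0.12, limma adjusted p = 0.140). Both exceeded 1.5-fold with no overlap, and they passed the adjusted threshold without vehicle replicate 3 (0.0415 and 0.0409) and with array quality weights (0.0325 and 0.0337), settings that called 885 and 822 probe sets. Wars2, which charges the tryptophan transfer RNA, read lower, at 5.37, 5.71 and 5.39 with vehicle and 5.03, 5.10 and 4.96 with OSU-CG5, a difference of -0.46 (SE 0.13, limma adjusted p = 0.190). Of the 19 measured genes of mitochondrial aminoacyl-tRNA synthesis 2 read higher and 1 lower with an unadjusted p under 0.05, 15.8% of the list beside 13.8% of all genes. The list's median was -0.06, and 0.01 without vehicle replicate 2.

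In mitochondrial transcription and RNA processing, 2 of 23 measured genes read higher and 1 lower with an unadjusted p under 0.05. That is 13.0% of the list, beside 13.8% of all genes and 16.3% of those above log2 6. The list's median was 0.00, and 0.05 without vehicle replicate 2. Lrpprc, which stabilises mitochondrial messages, read 7.75, 8.02 and 7.90 with vehicle and 8.34, 8.31 and 8.32 with OSU-CG5, a difference of 0.44 (SE 0.12, limma adjusted p = 0.179). Tfb2m, the factor that opens mitochondrial promoters, read 9.03, 9.13 and 9.03 with vehicle and 9.43, 9.47 and 9.48 with OSU-CG5, a difference of 0.39 (SE 0.11, limma adjusted p = 0.181). In both the groups stood well apart, while Tfam, the packaging and transcription factor, differed by 0.21 (SE 0.12), Polrmt, the mitochondrial RNA polymerase, by -0.19 (SE 0.12) and Tbrg4 by -0.31 (SE 0.13).

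Among 14 translation factors 3 read higher and none lower with an unadjusted p under 0.05. That is 21.4% of the list, beside 13.8% of all genes and 16.3% of those above log2 6 in either direction. Their median was 0.03, and 0.12 without vehicle replicate 2. Rmnd1, a protein needed for mitochondrial translation, read 5.63, 4.82 and 6.29 with vehicle and 6.75, 6.65 and 6.34 with OSU-CG5, a difference of 1.001 (SE 0.32, limma adjusted p = 0.217). That difference was 0.62 without vehicle replicate 2, its lowest array, and its limma adjusted p was 0.0459 without vehicle replicate 3. Mtfmt, which formylates the initiator transfer RNA, differed by 0.37 (SE 0.13) and Guf1, an elongation factor of the LepA family, by 0.53 (SE 0.22), the latter being 0.31 without vehicle replicate 2. Among the lower ones, Mtif3, an initiation factor, differed by -0.29 and Oxa1l, which inserts new chains into the inner membrane, by -0.23.

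Of 26 measured genes of mitoribosome assembly and ribosomal RNA modification 2 read higher and 2 lower with an unadjusted p under 0.05. That is 15.4% of the list, beside 13.8% of all genes and 16.3% of those above log2 6. The list's median was -0.09, and -0.04 without vehicle replicate 2. Nsun4, a methyltransferase of the small ribosomal RNA, differed by 0.50 (SE 0.17, limma adjusted p = 0.226), and Mterf3, which acts in mitochondrial transcription and ribosome biogenesis, by 0.52 (SE 0.22). Both were lowest on vehicle replicate 2, with differences of 0.31 and 0.28 without it. Ybey, an endoribonuclease that matures the small subunit, differed by -0.41 (SE 0.15) and Trmt61b, a methyltransferase of mitochondrial RNA, by -0.38 (SE 0.15). Subunits of the mitoribosome that carry other symbols were near the members, with Chchd1 at -0.23, Gadd45gip1 at -0.18, Dap3 at -0.07 and Ptcd3 at 0.24 (SE 0.12), and none had an unadjusted p under 0.05.

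**Figure D5:**
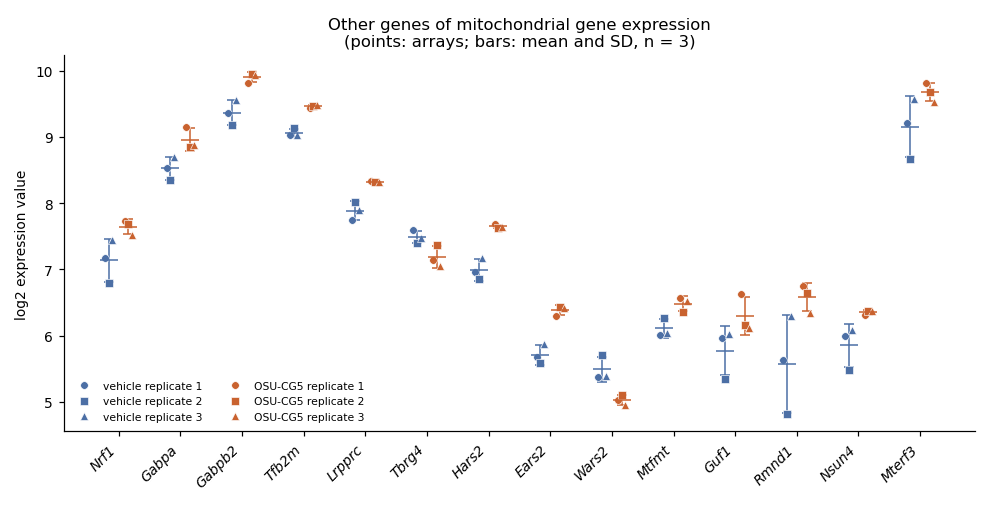
Log2 expression on each of the 6 arrays for 14 genes of the mitochondrial gene expression pathway, with the mean and SD of each group of 3. Nrf1, Gabpa, Gabpb2, Tfb2m, Lrpprc, Hars2, Ears2, Mtfmt, Guf1, Rmnd1 and Nsun4 have all OSU-CG5 arrays above all vehicle arrays, Wars2 and Tbrg4 have all below, and Mterf3 overlaps.

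Families that build cytoplasmic ribosomes and the respiratory chain had median differences close to the members'. For the 43 cytoplasmic ribosomal protein genes the median difference was -0.11 and 31 (72.1%) lay below 0. With an unadjusted p under 0.05, 1 read higher and 2 lower, 6.98% of them. For the 34 complex I subunit genes the median was -0.10 and 23 (67.65%) lay below 0, with 1 higher and 1 lower by that rule, 5.88% of them. The 76 mitochondrial ribosomal protein genes lay at -0.14. Over all genes the median was -0.09, with 65.7% below 0 and 13.8% at that p. Over genes above log2 6 these were -0.02, 53.4% and 16.3%. Without vehicle replicate 2 the family medians were -0.09, -0.11 and -0.07 in the order given, and that of all genes was -0.05. No difference between the families was tested.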

How the data were processed

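Total RNA of dorsal and lateral prostate from 6 mice was extracted with Trizol, and 2 ug went into labelling for Affymetrix arrays, per the labels' protocols. The deposited values are log2 expression per probe set, made by the authors with RMA per the submitters' processing notes; its software is not given in the sources used here. RMA, as background, forces the arrays to a shared distribution, so a broad shift of transcripts one way is partly removed. No probe intensities or scan dates were used.

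Of 45101 probe sets 64 controls were removed. Groups came from the tissue source label, and replicate numbers only name mice. Gene names came from the platform annotation (34945 probe sets with 1 symbol, 932 with several, 9160 with none); all 76 member symbols were in the RefSeq gene table. Groups were compared with lmFit and eBayes of limma 3.58.1 in R 4.3.3, two-sided, with no filter and with Benjamini-Hochberg adjustment over 45037 probe sets at 0.05. SE and 95% intervals are limma's moderated ones, SD is over the 3 arrays of a group, and a single measure was compared by an exact permutation test. These scripts were tested on simulated data. For all genes, 1 probe set per gene was taken as for the members.

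The members, gene lists, motifs and tests were chosen with earlier results of these data known. The text names, in each direction, the 6 Mrpl and 4 Mrps genes of smallest unadjusted p where there were that many, 14 members whatever their values, and of each pathway list up to 3 genes of smallest p in each direction, with others marked as chosen after their values were seen. The alternatives tried were filters on the mean at log2 4 and 6, cyclic loess, quantile normalization again, median centring, array weights, an unmoderated linear model, a prior with intensity trend and robust fit, 1 probe set per gene, other probe sets per gene, and each array left out. The number of arrays limits the precision.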

Additional observations from a re-analysis of the deposited data

How the results depend on the processing

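The members' median difference stayed below 0 under every alternative run, between -0.20 and -0.06, and no member passed an adjusted p of 0.05 in any. The median over all genes tested also stayed below 0 in each, between -0.11 and -0.02. Without OSU-CG5 replicate 3 the members stood at -0.06 and all genes at -0.09. With the values as deposited, 4 members read lower and 1 higher with an unadjusted p under 0.05. The lower count was 2 with only probe sets of a mean of at least log2 6 and also 2 with median centring. Quantile normalization applied again gave 12 lower, 0 higher and 22 without overlap (11 as deposited), and the members at that p were then 15.8% beside 15.0% of all genes. In every other alternative the members' share at that p was below that of all genes. It was 9.21% beside 11.9% after cyclic loess and 11.8% beside 18.4% with array weights. With plain identifiers it was 9.68% of 62 members beside 13.8%. In that alternative all genes were still read by their brightest probe set of any kind, for this share and for the median. Cyclic loess gave 2 higher and 19 without overlap, the intensity trend with robust prior 1 lower and 0 higher, array weights 7 lower and 2 higher, and plain identifiers 2 higher. With array weights 822 probe sets passed the adjusted threshold, where 0 had passed. With 1 array left out, 0 to 885 probe sets passed (885 without vehicle replicate 3 and 400 without vehicle replicate 2), 1 to 8 members were lower, 0 to 2 higher and 13 to 29 without overlap, as fewer arrays make an overlap rarer. For the counts without overlap under the alternatives no share of all genes is given here, so they show nothing particular to the members. Filters, moderation and testing 1 probe set per gene leave a gene's difference as it is. Under the 4 alternatives that change it by scaling or weights, 28 of 31 named members kept their sign. Mrps14 was at -0.032 after quantile normalization, -0.018 after cyclic loess and -0.12 with array weights, Mrpl10 at -0.068 after quantile normalization, and Mrps2 at 0.0094 with array weights. The choices of probe set, applied to single genes after seeing the data, turned the sign of 5 genes. With plain identifiers (24 of the named genes) Mrpl19 stood at -0.24, Mrpl38 at 0.26 and Mrpl44 at 0.012, and with the mean over a gene's probe sets Mrps21 at 0.22, Mrps11 at 0.020 and Mrpl19 at -0.047. With 1 array left out, 23 kept their sign, and Mrpl10 ran from -0.075 to 0.19, Mrpl3 from -0.15 to 0.030, Mrpl41 from -0.27 to 0.067, Mrpl44 from -0.31 to 0.0034, Mrps12 from -0.35 to 0.014, Mrps14 from -0.11 to 0.13, Mrps2 from -0.11 to 0.088 and Mrps30 from -0.26 to 0.0090. Where a value moved, the cause was not tested. No paired analysis was possible because the labels give the mice no shared replicate numbers.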
